A study of Mus musculus with 6 samples.

Results

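The integrin and laminin genes were followed in the apical mesenchyme of mouse molars. They were the 37 of 25899 genes in the table whose symbols name an integrin subunit or a laminin chain: 18 integrin alpha, 8 integrin beta and 11 laminin genes. RNA came from the mesenchyme of the apical portion of mandibular first molars at postnatal day 7.5. Mutants were Gli1-CreER;Bmpr1afl/fl and controls were Bmpr1afl/fl littermates, so both groups carried the floxed receptor alleles and only the mutants the driver. The driver makes a tamoxifen-dependent recombinase in Gli1-expressing cells, and the tamoxifen schedule is not stated in the labels. All mice were of a mixed background (C57Bl6/129S6/SvEvTac). Replicates 1 and 2 of each genotype came from litter 1, and replicate 3 of each from litter 2. The labels do not say whether each library is a separate animal, so p-values measure the spread between these libraries only.

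Bmpr1a, the floxed type I receptor for bone morphogenetic proteins, stood at 121, 139 and 149.5 RPM (reads per 1000000, the unit of all levels here) in controls 1 to 3. In mutants 1 to 3 it stood at 108, 120 and 111, so that the groups came close without overlapping (change -0.27, SE 0.14; limma, unadjusted p 0.091). No 2 libraries agreed within counting noise (chi-square per degree of freedom at least 22.3). All 11 listed dental mesenchyme markers were expressed above 1 RPM on average, with summed levels of 5184 to 6970 RPM in controls and 4106 to 6575 in mutants. The same libraries held enamel epithelium: Amelx, the main enamel matrix gene, ranged from 876 to 19794 RPM in controls and from 2526 to 23480 in mutants. The mean of 10 epithelial markers was lowest in control 2, followed by mutant 2, control 1, mutant 3, control 3 and mutant 1, an 11.9-fold span. Of these 10 markers 9 were higher in mutants (median change 1.21 on the log2 scale), none with an unadjusted p under 0.05. In such bulk tissue, fewer cells of a type and less RNA per cell cannot be told apart.

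Integrins are receptors made of 1 alpha and 1 beta subunit that tie cells to the matrix around them. The alpha subunit largely sets the ligand, and beta1 pairs with the widest range of alphas. Laminins are trimers of an alpha, a beta and a gamma chain that form the sheet of the basement membrane. In teeth this membrane separates dental epithelium from mesenchyme, and laminin-332 with integrin alpha6beta4 anchors the epithelium, including ameloblasts, to it.

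Of the 37 genes, 34 reached a mean of 1 RPM and were tested: 23 integrins and all 11 laminins. No member passed adjustment over all genes (limma, Benjamini-Hochberg, adjusted p 1.00 for each named member). At an unadjusted p under 0.05 there were 4 members, Lama1, Lamc3 and Itga4 lower in mutants and Itga2 higher. That is 11.8% of the tested members, where 1.05% of all 14444 tested genes met the same rule (0.692% lower, 0.36% higher). The groups did not overlap for 5 members, the same 4 and Itgb1, or 14.7%, against 2.64% of all tested genes (1.67% lower, 0.976% higher). Changes and the counts of genes lower or higher are of the mean of log2(RPM + 1), from which the RPM means of Itga7, Itga9, Itgb4 and Itgb6 differed in direction. Without a threshold, 18 of the 34 were lower in mutants, 52.9%, against 54.4% of all genes, and the median change was -0.01 on the log2 scale, as over all genes.

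**Figure D1:**
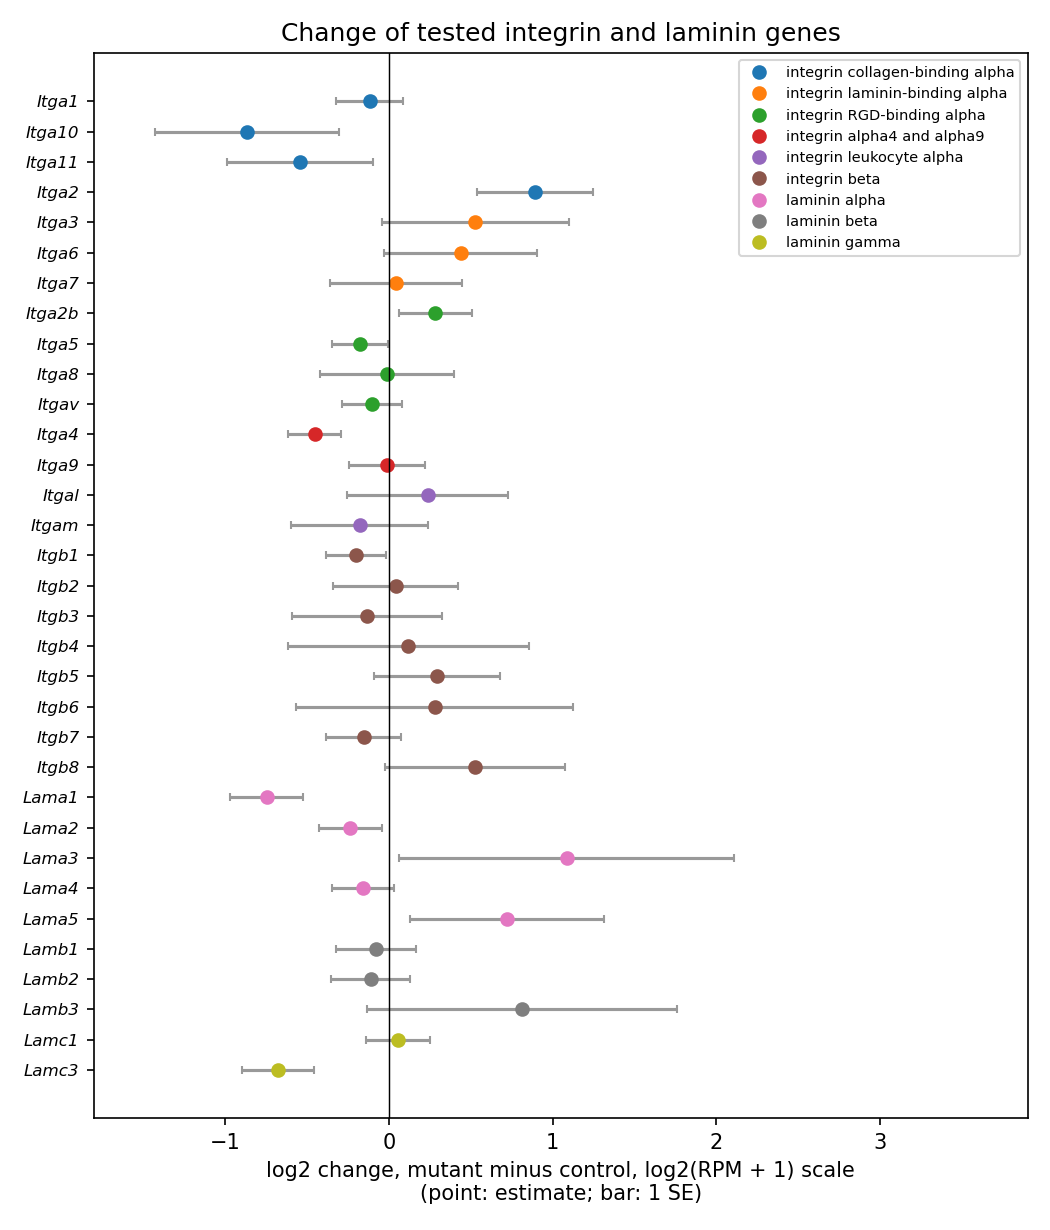
Difference between mutant and control means of log2(RPM + 1) for the tested members described here, by role, with bars of 1 standard error (3 libraries per group). Lama1, Lamc3, Itga4 and Itga2 lie farthest from 0 for their errors, and Lama3 and Lamb3 have wide errors.

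Itgb1, the common beta subunit, was the highest member per kilobase of transcript, at 150 ± 14.4 RPM per kb (mean ± SD over the 6 libraries). Its level was 585, 607 and 639 RPM in controls 1 to 3 and 479, 544 and 570 in mutants 1 to 3. Every mutant lay below every control. The means were 610 ± 27.1 and 531 ± 46.7 RPM (SD, n = 3 per group here and below), and the change was -0.20 (SE 0.18; limma, unadjusted p 0.309). The direction held in both litters, at -0.22 in litter 1 and -0.16 in litter 2, and the unadjusted p stayed above 0.05 in all 16 alternatives. With 1 library left out the change ran from -0.25 to -0.13 (the latter without mutant 1). With the epithelial covariate the change was -0.20.

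Itgb5, which pairs with alphav, came next per kilobase, at 86.6 ± 30.9 RPM per kb, with overlapping groups of 146 to 356 and 210 to 430 RPM. Itgb1 and Itgb5 together made up most beta-subunit RNA: per kilobase, Itgb1 held 48.9% to 74.5% of the class and Itgb5 20.8% to 42.8%. The other beta subunits stood lower. Itgb4, the partner of alpha6, averaged 15.9 ± 11.95 RPM per kb. Itgb3, Itgb2, Itgb6, Itgb8 and Itgb7 averaged between 0.405 and 1.98 RPM per kb, and their groups overlapped. Among these, Itgb6, an epithelial partner of alphav, spanned 16.8-fold over the libraries, from 0.769 to 13.0 RPM.

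Of the 4 collagen-binding alpha subunits, Itga2 was higher in mutants and its 3 relatives had overlapping groups. Itga2, at chr13:114833081-114932100 (mm10, minus strand), encodes the alpha of a collagen receptor of epithelia and platelets. It stood at 17.8, 7.73 and 15.9 RPM in controls 1 to 3 and at 35.9, 18.2 and 24.0 in mutants 1 to 3. The groups came close, since mutant 2 lay just above control 1. The means were 13.8 ± 5.34 and 26.1 ± 9.02 RPM, a change of 0.89 (SE 0.35; limma, unadjusted p 0.0382). It was 1.06 in litter 1 and 0.57 in litter 2. Itga2 followed the order of the epithelial markers in 11 of the 15 pairs of libraries, where the median of tested genes outside that list was 6. Of these markers 9 of 10 were also higher in mutants, and their part in the Itga2 value was not tested. With the epithelial marker mean as a covariate the change was 0.57 (limma, unadjusted p 0.0481). The unadjusted p passed 0.05 in 5 of 16 alternatives: median-of-ratios scaling (0.0572), litter 1 alone (0.0566), and without control 2 (0.0967, change 0.55), mutant 1 (0.141) or mutant 3 (0.0692).

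Itga10, a collagen receptor subunit of cartilage, had the highest mean of the collagen-binding alphas. It stood at 19.5, 33.1 and 29.6 RPM in controls and at 20.8, 26.8 and 4.86 in mutants 1 to 3. Only mutant 3 was low, and the change over all libraries was -0.86 (SE 0.56; limma, unadjusted p 0.166). Without mutant 3 it was -0.17, and with the epithelial covariate -0.69. Itga11, a collagen receptor of fibroblasts, stood at 17.5, 14.9 and 50.7 RPM in controls and 21.0, 12.1 and 16.1 in mutants. Here only control 3 was high (change -0.54, SE 0.45; limma, unadjusted p 0.264), and without it the change was -0.012. Without control 1 the change was -0.75, and without control 2 it was -0.86. With the epithelial marker mean as a covariate it was -0.99 (SE 0.25; limma, unadjusted p 0.00542). Mutant 3 also had the lowest means of the 7 osteoblast markers, 6.58 against 7.44 to 8.80 on the log2(RPM + 1) scale, and of the 5 odontoblast markers, 4.50 against 6.16 to 6.56. Their part in the Itga10 value was not tested. Itga1 lay between 7.62 and 12.3 RPM in all libraries.

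Of the alpha4 and alpha9 pair, which bind fibronectin and VCAM1 or tenascin, Itga4 was lower in mutants. Itga4, at chr2:79255426-79333123 (mm10, plus strand), is used by leukocytes and by neural crest-derived cells. It stood at 65.7, 47.6 and 67.1 RPM in controls 1 to 3 and at 42.1, 45.2 and 42.2 in mutants 1 to 3. The mutants were tightly grouped, and control 2 lay close above them. The means were 60.1 ± 10.9 and 43.2 ± 1.79 RPM, a change of -0.45 (SE 0.16; limma, unadjusted p 0.0265), with -0.35 in litter 1 and -0.66 in litter 2. With the epithelial covariate it was -0.55 (limma, unadjusted p 0.0102). The unadjusted p passed 0.05 in 5 of 16 alternatives: litter 1 alone (0.122), and without control 1 (0.0966), control 3 (0.0752), mutant 1 (0.0621) or mutant 3 (0.0639). Itga9 ranged from 17.1 to 29.3 RPM with overlapping groups. The ratio of Itga4 to Itgb1, its partner, was 0.0986 ± 0.0178 in controls and 0.0817 ± 0.00711 in mutants and overlapped (two-sided exact permutation p = 0.3, where the smallest possible is 0.1).

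Markers of leukocytes and osteoclasts did not separate the groups: their summed level was 282 to 479 RPM in controls and 277 to 535 in mutants. Of the 8 tested, 6 were higher in mutants and 2, the osteoclast genes Ctsk (change -0.28) and Acp5 (-0.89), were lower. Of these 8, 0 had an unadjusted p under 0.05. Of 6 Schwann cell and glial markers, 2 did, both lower, among them S100b at 4.42 ± 0.483 RPM in controls and 2.76 ± 0.620 in mutants. The other 4 had a higher mean of log2(RPM + 1) in mutants without reaching that p, such as Sox10 (change 0.69) and Erbb3 (0.66), although the RPM mean of Cdh19 was lower (8.87 in controls, 7.63 in mutants), and the median change of the list was 0.18. The 6 glial markers summed to 27.3 to 40.6 RPM in controls and 33.6 to 42.2 in mutants, and none was at 0. All 7 osteoblast markers had a lower mean of log2(RPM + 1) in mutants. An unadjusted p under 0.05 was reached by 2 of them, Ibsp and Spp1 (28.6%, against 1.05% of all tested genes). The Spp1 groups overlapped: control 1 stood at 4.54 RPM, controls 2 and 3 at 96.1 and 159, and the mutants at 3.36 to 5.20. In RPM, the means of Bglap (482 in controls, 540 in mutants) and Bglap2 (297 and 331) were higher in mutants, with mutant 3 lowest at 86.8 and 56.7. The 7 had sums of 16154 to 23524 RPM in controls and 5395 to 30898 in mutants. Of the dental mesenchyme markers 9 of 11 were lower in mutants (81.8%, median change -0.23), none at that p, with Twist1 not overlapping, and all 4 tested odontoblast markers had a lower mean of log2(RPM + 1) (median -0.79), also none at that p. In RPM, the means of Dspp (3231 in controls, 3876 in mutants) and Phex (333 and 417) were higher in mutants, with mutant 3 lowest at 113 and 18.2. The part of these cells in the Itga4, Lama1 and Lamc3 values was not tested.

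The promoters of Itga4 and Itgb1, partners that were both lower, and of Itga2, which was higher, are shown from 250 bases before to 50 bases after the annotated start. They were taken from RefSeq on GRCm38.p6, where 23 of the 37 members were found. Capitals mark GGGCGG, a GC box, and GGCGCC, a GC-rich palindrome, searched on both strands, and no 2 matches overlap here. Over all 32851 promoters in that table, 35.7% held the first and 11.9% the second. The windows are chr2:79255176-79255475 (plus strand), chr8:128685404-128685703 (plus strand) and chr13:114932051-114932350 (minus strand).
Itga4: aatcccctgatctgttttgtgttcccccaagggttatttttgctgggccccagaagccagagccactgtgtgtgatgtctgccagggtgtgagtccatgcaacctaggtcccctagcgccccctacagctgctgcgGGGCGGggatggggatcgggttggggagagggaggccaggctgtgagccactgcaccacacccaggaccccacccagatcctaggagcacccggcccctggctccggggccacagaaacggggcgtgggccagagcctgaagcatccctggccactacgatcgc
Itgb1: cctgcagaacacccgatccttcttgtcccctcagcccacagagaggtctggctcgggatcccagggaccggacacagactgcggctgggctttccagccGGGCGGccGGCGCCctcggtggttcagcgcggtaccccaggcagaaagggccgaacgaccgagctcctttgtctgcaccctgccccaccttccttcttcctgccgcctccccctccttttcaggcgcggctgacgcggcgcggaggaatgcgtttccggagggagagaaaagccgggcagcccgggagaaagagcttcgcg
Itga2: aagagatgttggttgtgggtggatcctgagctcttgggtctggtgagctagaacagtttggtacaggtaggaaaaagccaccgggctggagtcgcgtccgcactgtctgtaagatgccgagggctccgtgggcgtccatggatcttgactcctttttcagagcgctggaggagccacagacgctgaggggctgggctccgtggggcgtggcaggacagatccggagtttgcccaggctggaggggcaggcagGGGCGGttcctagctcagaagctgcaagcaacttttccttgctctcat
Each window held 1 GC box, beginning 114 bases before the start in Itga4, 151 before it in Itgb1 and 2 past it in Itga2. Itgb1 alone of the 3 held GGCGCC, 143 bases before its start. Among the 23 members found, 11 held the GC box and 3 held GGCGCC. These are matches of letters and were not tested against any change.

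The laminin-binding alphas did not separate the genotypes. Itga6, which pairs with beta1 or beta4, was the highest alpha per kilobase (31.7 ± 12.8 RPM per kb) and stood at 121, 52.6 and 194 RPM in controls and 157, 103 and 192 in mutants. The groups overlapped widely, with control 2 far below the rest, and the change was 0.44 (SE 0.47; limma, unadjusted p 0.377). Without control 2 it was -0.070, and without control 3 it was 0.86. Itga3, also a laminin receptor of epithelia, ran from 15.8 to 77.1 RPM, and Itga7, known from muscle, from 1.24 to 5.33.

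Among the RGD-binding alphas, whose ligands include fibronectin, Itgav was highest in RPM. It stood at 104, 83.8 and 126 RPM in controls and 110, 85.2 and 94.96 in mutants, overlapping and within a 1.504-fold span. Per kilobase of the longest transcript Itgav exceeded Itga5 (14.3 and 11.9 RPM per kb), but not with the union of all exons (9.37 and 10.5). Itga5, the fibronectin receptor alpha, ran from 39.4 to 63.4 RPM. Itga8 ran from 19.8 to 55.9 RPM, and Itga2b, the platelet alpha, from 1.94 to 4.13. None of the 4 had an unadjusted p under 0.05. Of the leukocyte alphas, Itgal stood at 6.02, 5.81 and 1.62 RPM in controls and 4.19, 9.15 and 2.89 in mutants, and both groups were widely spread. Itgam ran from 2.44 to 8.25 RPM. The 3 untested members belong here as well: Itgax had 0 to 6 reads in a library, and Itgad and Itgae 0 to 2, under the 3 reads taken as detectable.

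**Figure D2:**
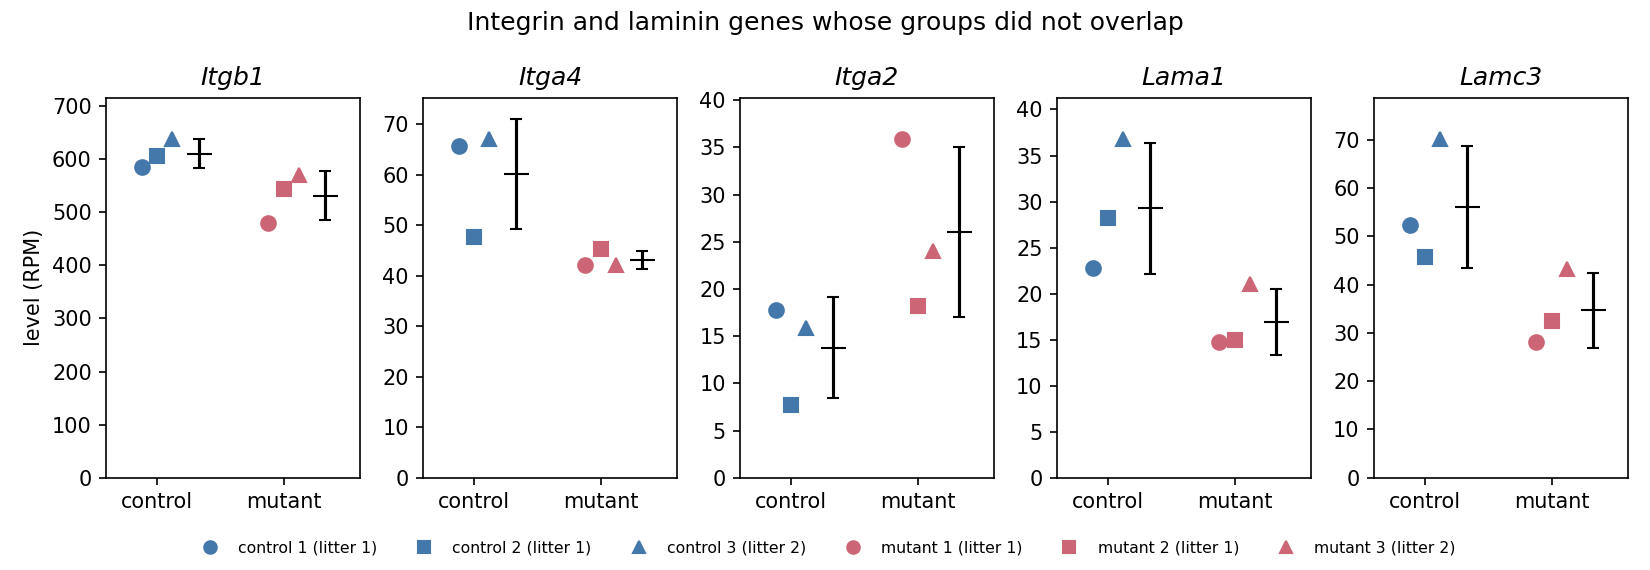
Level in RPM (vertical axes from 0, one scale per gene) in each library for the 5 members whose groups did not overlap, with mean and SD of 3 libraries in black and the marker shape giving the replicate number. The mutants lie below the controls for Itgb1, Itga4, Lama1 and Lamc3 and above them for Itga2, and in all 5 the gap between the groups is smaller than the larger SD.

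The lowest unadjusted p-values among the members were those of 2 laminin chains, Lama1 and Lamc3, both lower in mutants. Lama1, at chr17:67697259-67822647 (mm10, plus strand), encodes the alpha1 chain of embryonic and some adult epithelial basement membranes. It stood at 22.8, 28.2 and 36.8 RPM in controls 1 to 3 and at 14.8, 14.97 and 21.0 in mutants 1 to 3. All mutants lay below all controls, and in each group the litter 2 library was highest. The means were 29.3 ± 7.09 and 16.9 ± 3.56 RPM, a change of -0.75 (SE 0.22; limma, unadjusted p 0.0119). The change was -0.73 in litter 1 and -0.78 in litter 2, and the unadjusted p was under 0.05 in 16 of 16 alternatives.

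Lamc3, at chr2:31887291-31946539 (mm10, plus strand), encodes the gamma3 chain. It stood at 52.3, 45.7 and 70.2 RPM in controls 1 to 3 and at 28.1, 32.5 and 43.3 in mutants 1 to 3. Again no mutant reached a control, and mutant 3 came nearest, to control 2. The means were 56.1 ± 12.7 and 34.6 ± 7.81 RPM, a change of -0.68 (SE 0.22; limma, unadjusted p 0.0167), the same in litter 1 (-0.68) and litter 2 (-0.68). It was under 0.05 in 15 of 16 alternatives, the exception being without mutant 1 (0.0614, change -0.54). With the epithelial marker mean as a covariate the changes were as large, -0.84 for Lama1 and -0.81 for Lamc3 (limma, unadjusted p 0.00806 and 0.00622). Lama1 followed the order of the epithelial markers in 6 of the 15 pairs of libraries and Lamc3 in 7, near the median of 6 over all tested genes.

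The common gamma chain Lamc1, part of most laminins, did not separate the groups, at 301, 254 and 303 RPM in controls and 307, 238 and 356 in mutants. Ratios within a library, which no library scaling can move, were formed after these values had been seen. Lamc3 over Lamc1 was 0.174, 0.180 and 0.232 in controls and 0.0916, 0.137 and 0.122 in mutants, without overlap. Lama1 over Lamc1 was 0.103 ± 0.0240 in controls and 0.0567 ± 0.00769 in mutants, also without overlap. Each gave a two-sided exact permutation p of 0.1, the smallest that 3 against 3 allows. Both genes were already without overlap and Lamc1 varied little, so these ratios are no separate support. Lama1 over Lamb1 and Itga2 over Itgb1 also gave an exact permutation p of 0.1. All other ratios formed overlapped, among them Lamc3 over Lama1 (1.94 ± 0.340 and 2.04 ± 0.135; exact permutation p = 0.7).

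The other mesenchymal and vascular chains had overlapping groups. Lama4, of vessels and mesenchyme, ran from 79.3 to 120 RPM, and Lama2, the alpha chain of muscle and nerve basement membranes, from 33.2 to 51.0. Lamb1, a beta chain of many laminins, stood at 210, 163 and 270 RPM in controls and 216, 154 and 237 in mutants, with the lowest library of both groups from litter 1. Lamb2 ran from 90.4 to 176 RPM. Lama5, the broad epithelial alpha chain, stood at 131, 29.3 and 128 RPM in controls and 151, 83.3 and 180 in mutants. Only control 2 was far down, and the change of 0.72 (SE 0.59; limma, unadjusted p 0.26) was within the spread. It was 0.020 without control 2 and 0.13 with the epithelial marker mean as a covariate, and Lama5 followed the epithelial order in 12 of 15 pairs of libraries.

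Lama3 and Lamb3, chains of laminin-332, varied widely between libraries and did not separate the genotypes. Lama3 stood at 32.1, 11.5 and 148 RPM in controls and 222, 26.4 and 94.9 in mutants, a 19.3-fold span. Lamb3 stood at 47.4, 30.0 and 279.7 RPM in controls and 309, 45.4 and 158 in mutants, a 10.3-fold span. In both genes control 3, mutant 1 and mutant 3 were high and control 2 was lowest, across genotypes. Their changes were 1.09 (SE 1.02) and 0.82 (SE 0.95), with unadjusted p of 0.323 and 0.417 by limma. The litters went opposite ways, at 1.94 in litter 1 and -0.63 in litter 2 for Lama3 and at 1.63 and -0.82 for Lamb3. Without control 3 the change of Lama3 was 2.04 and that of Lamb3 1.77 (limma, unadjusted p 0.0522 and 0.0499). Without control 2 they were 0.26 and 0.18, without mutant 1 they were 0.38 and 0.20, and without mutant 2 they were 1.89 and 1.57. Without control 1 Lamb3 was at 0.50. Itgb4, the hemidesmosome beta subunit, stood at 60.5, 30.3 and 230.3 RPM in controls and 98.9, 42.7 and 129 in mutants (change 0.12, SE 0.73). Its mean in RPM was lower in mutants (107 and 90.3), its change was 0.59 in litter 1 and -0.83 in litter 2, and it was -0.52 without control 2 and 0.92 without control 3.

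Lama3 and Lamb3 each ordered the 6 libraries exactly as the epithelial markers did, in 15 of 15 pairs, and Itgb6 did so in 14. Itgb4, Itga6, Itga3 and Itgav did so in 13. Among all tested genes outside the marker list, these members included, the median was 6 pairs, and 1.42% reached 14. Such an order is a description of 6 libraries that share each library's depth and scaling. With the epithelial mean as a covariate the change of Lama3 was -0.052, of Lamb3 -0.20 and of Itga6 -0.061, none with an unadjusted p under 0.05 by limma. Itgb4 was at -0.68 in that fit (limma, unadjusted p 0.0396). Itgb1 by contrast followed the epithelial order in 6 pairs.

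**Figure D3:**
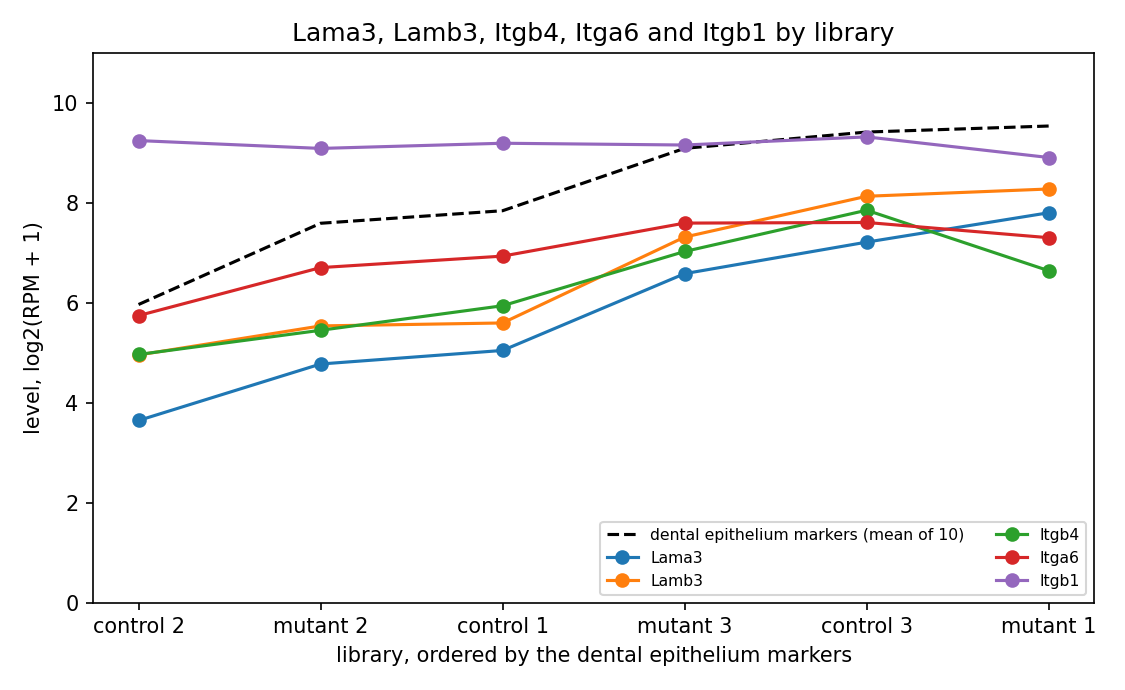
Level on the log2(RPM + 1) scale in each library, with libraries ordered from left to right by the mean of 10 dental epithelium markers (dashed line). Lama3 and Lamb3 go up at every step of that order, Itgb4 and Itga6 drop at mutant 1, and Itgb1 stays between 479 and 639 RPM.

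Itgb2 followed the 9 leukocyte and osteoclast markers in 15 of 15 pairs and its partners Itgal and Itgam in 14. At least 14 pairs were reached by 3 of the 34 tested members (8.82%) and by 8.98% of all tested genes outside the marker list. Itga8 and Itga7 followed the pericyte and smooth muscle markers in 14 pairs, a count reached by 2.99% of tested genes outside that marker list. No member reached 14 with the endothelial markers, and Lama4, Itga5 and Itga9 came to 13.

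Read per kilobase, so that chains can be compared, the make-up of the laminin alpha and beta chains differed by library. Of the alpha chains, Lama4 held the most, 41.6% on average (24.8% to 61.5%), and Lama1 held 7.91% ± 2.02 in controls and 4.15% ± 1.05 in mutants, without overlap. Lama3 ranged from 3.56% in control 2 to 39.9% in mutant 1. Of the beta chains, Lamb3 ranged from 9.42% to 52.2%. Summed levels per kilobase were 41.9 RPM per kb for alpha and 88.5 for beta chains. Lengths were those of the longest coding transcript. With the union of all exons Lama5 exceeded Lama4 (31.2% and 29.3%) and Lamb2 exceeded Lamb1 (36.5% and 33.8%).

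**Figure D4:**
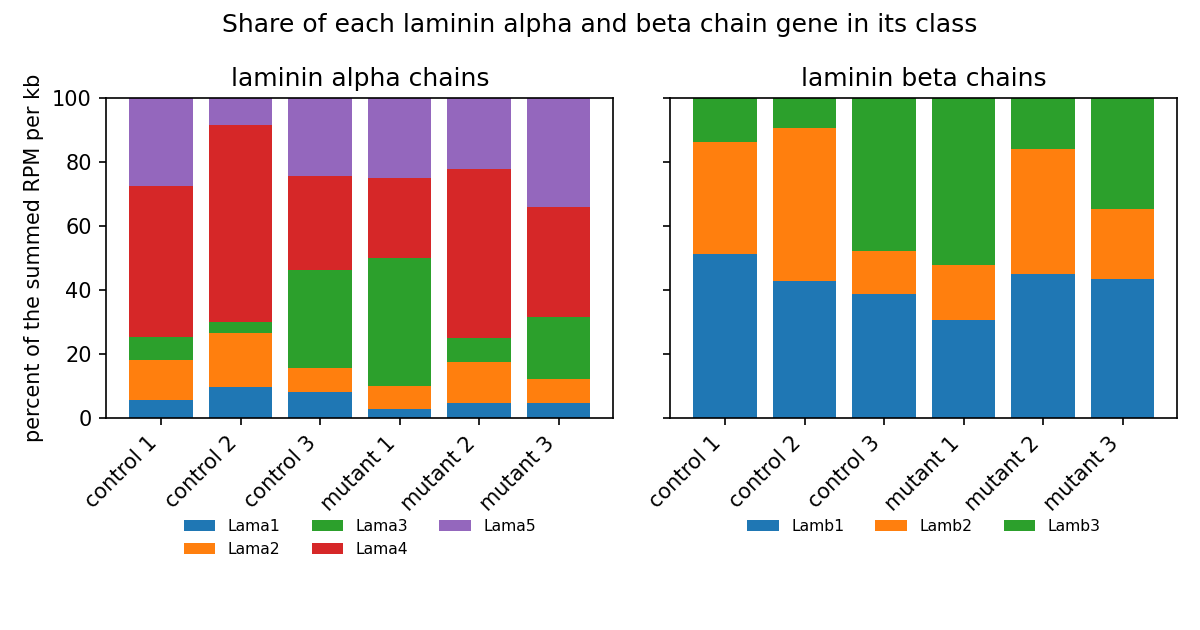
Percent of the summed RPM per kb that each laminin gene holds within the alpha and the beta chains, 1 bar per library. Lama3 and Lamb3 have their largest shares in control 3, mutant 1 and mutant 3, and Lama1 has a smaller share in each mutant than in any control.

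Other genes of the pathway are set beside all tested genes, of which 54.4% were lower in mutants. Of all tested genes, 1.05% had an unadjusted p under 0.05 (limma) and 2.64% had groups without overlap. Of 26 tested cytoplasmic proteins that link integrins to actin, 17 were lower in mutants (median change -0.07). By the rule of the flagged results below, 12 of the 26 went opposite ways in the 2 litters (46.2%, against 18.2% of all tested genes). Of the 26, 1 had an unadjusted p under 0.05 (3.85%). This was Tln2, a talin, which activates integrins: it stood at 68.6, 73.1 and 62.9 RPM in controls and 54.0, 60.4 and 48.8 in mutants, without overlap (change -0.32, SE 0.14; limma, unadjusted p 0.0469). Actn4, an actin crosslinker and the highest of that list, overlapped at 279 to 473 and 300 to 449 RPM. Of 17 tested integrin ligands, 7 were lower (median 0.09), and 0 had an unadjusted p under 0.05. The highest, Tnc, encoding tenascin-C, ran from 541 to 1786 RPM. Of 19 basement membrane partners of laminin, 11 were lower (median -0.05) and 0 had an unadjusted p under 0.05; Col4a1, the collagen IV alpha1 chain, ran from 388 to 620 RPM. Of 6 hemidesmosome partners 5 were higher (median 0.25) and 0 had an unadjusted p under 0.05; Krt5, a basal keratin, ran from 95.4 to 2076 RPM, lowest in control 2.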

How the data were processed

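RNA of 6 libraries (3 mutant, 3 control) was measured by poly(A) sequencing. TopHat2 and genome build mm10 are named in the submitters' processing notes; the counting program and annotation are not given in the sources used here. The authors deposited 1 table under an RPKM title, with values in log2. Raised as powers of 2, 100% of the values up to 1000 reads were whole multiples of 1 step per library (within 0.02 of a read), shared by all genes. They were therefore taken as log2 RPM (reads per 1000000), not divided by length, with 0.9 of a step standing for no reads. Reads on genes came to 15916045 to 20609420 per library. A level of 3 reads, the smallest taken as detectable, was 0.0987 to 0.126 RPM and covers counting error only.

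The 14444 of 25899 genes whose mean reached 1 RPM were fitted in R 4.3.3 by limma 3.58.1, on values of log2(RPM + 1) (lmFit, eBayes with trend, no covariate, two-sided, Benjamini-Hochberg over all tested genes). The fit assumed normalized log values, as the table holds. It was also run on simulated data with the same relative spread for every gene and no litter or epithelial differences. That run cannot show how the fit behaves on these libraries. Ratios between genes were compared by exact permutation over libraries. Lengths and gene positions came from GENCODE vM21 and promoters from RefSeq, both on GRCm38, the assembly that mm10 names. The members and lists were chosen with earlier results of these data known. By rule, values per library are given for Itgb1, members with an unadjusted p under 0.05 or groups that do not overlap, the highest member of each role and a set of laminin-332 and hemidesmosome genes; Itga11 was singled out after its values were seen. Values of 1 member and 1 cell type marker are not reported here, though both are counted. In the other pathway lists, genes with an unadjusted p under 0.05 and the highest gene of each list are named. The alternatives were a pseudocount of 0.1, a filter at 5 RPM or none, scaling by median of ratios, eBayes without trend, litter or replicate number as a block, litter 1 alone, an epithelial covariate, limma voom and leaving out each library.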

Additional observations from a re-analysis of the deposited data

Results flagged for a closer look

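For 6 of the 34 tested members the mutants of litter 1 were both above or both below its controls, while in litter 2 the mutant differed from its control in the other direction. This is 17.6% of the members, against 18.2% of all tested genes. The members were picked for these opposite directions, so the differences are a description. Litter 2 holds 1 library per genotype, the spread in the fit comes from litter 1 alone, and no litter-by-genotype term passed adjustment over all genes (limma, Benjamini-Hochberg; adjusted p 0.501 to 0.91 for the 6). Itga8, an RGD-binding alpha, was at -0.70 in litter 1 and 1.36 in litter 2, a difference of 2.06. Itga7 was at -0.51 and 1.14, a difference of 1.65. Lamb2 differed by 0.67 (-0.33 and 0.34), Lama4 by 0.60 (-0.36 and 0.24), Lama2 by 0.43 (-0.38 and 0.05) and Itga2b by -0.51 (0.45 and -0.06).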

How the results depend on the processing

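The count of all genes with an unadjusted p under 0.05, 152 as reported, was 524 with the replicate block, 520 with the epithelial covariate, 344 with no filter, 319 in litter 1 alone and 292 when litter was a block. Across the fits that left out 1 library it ran from 68 (without mutant 1) to 325 (without control 1). The count of members, 4 as reported, was 7 with the replicate block, 6 with the epithelial covariate (Itga11 and Itgb4 added, both lower) and ran from 1 (without mutant 1, Lama1 alone) to 6 (without control 3). The 9 members followed kept their direction in 135 of 144 values. With the epithelial covariate Itgb4 went to -0.68, Lamb3 to -0.20, Itga6 to -0.061 and Lama3 to -0.052. With 1 library left out Itgb4 ran from -0.52 to 0.92 and Itga6 from -0.070 to 0.86. The cause was not tested. Replicate numbers do not pair the libraries: same-numbered deviations correlated, across genes, at -0.03, 0.75 and 0.50, and not every library correlated best with its own number. With that replicate block the unadjusted p (limma) was 0.00155 for Lama1, 0.00222 for Lamc3, 0.0015 for Itga2, 0.0255 for Lama5, 0.0419 for Itga3 and 0.029 for Itga4, and no member passed adjustment. Depth limits Itgax, Itgad and Itgae, at 0 to 6 reads.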

Other observations

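Itga2 lies 21.0 kb from Itga1 on the same strand of chromosome 13 (GENCODE vM21), with changes of 0.89 and -0.12. The Itga1 change was 0.024 without control 1 and -0.22 without control 3.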
